A study of Rattus norvegicus with 6 samples.

Results

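The sterol sensing genes considered here are Srebf1, Insig1, Insig2 and Vldlr. Members were all probe sets whose single annotated gene symbol is one of these 4 names, which gave 4 of the 8799 probe sets on the array: 1 for Srebf1 (probe set L16995_at), 2 for Insig1 (L13619_at and L13619_g_at) and 1 for Vldlr (L35767_at). Insig2 had no probe set under this rule and is not analysed here. The tissue was rat spinal cord at about T8, measured as total RNA on 6 one-colour arrays. By their titles, 3 arrays hold tissue from the epicenter of a contusion (a blunt blow to the exposed cord) taken on day 35, and 3 hold tissue from the same level of uninjured controls. The labels name no strain, sex, age, genotype, drug or sham operation for either group, give no day for the controls and do not say whether RNA of several animals was pooled. Contusion, surgery and elapsed time cannot be told apart here. The members were chosen from the contrast of the contused with the uninjured arrays, so their values in that contrast are a description and carry no test.

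Sterol regulatory element-binding proteins (SREBPs) are transcription factors made as precursors in the membrane of the endoplasmic reticulum. When sterols are scarce, the escort protein Scap carries a precursor to the Golgi, where proteases release the part that enters the nucleus. The protein products of Insig1 and Insig2 bind Scap when sterols are plentiful and hold it back. Insig1 is itself switched on by SREBPs. Among the known inputs to transcription of Srebf1 are the oxysterol-sensing liver X receptors (LXRs) and insulin. Vldlr encodes a lipoprotein receptor that takes up lipoproteins carrying apolipoprotein E and receives the reelin signal. The central nervous system makes its own cholesterol, much of it for myelin.

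Median signals of the arrays ran from 122 to 127, and signals are the deposited linear intensities, in arbitrary units. The ratio of 3′ to 5′ signal of the GAPDH control, a measure of RNA integrity, was 1.08 to 1.12 on the contused and 1.13 to 1.17 on the uninjured arrays. Of 9 cell type marker lists, those of microglia and macrophages and of neurons had the largest median differences, given at the end of the results. The labels leave unsaid whether the 3 arrays of a group stand for 3 animals, and p-values rest on the spread among arrays, part of which may be technical. In tissue RNA, fewer cells of a type and less RNA per cell cannot be told apart.

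Srebf1 was higher in contused cord, Insig1 was lower at both of its probe sets, and the signals of Vldlr overlapped. Srebf1 encodes the precursor of SREBP1, the family member most tied to fatty acid synthesis. Its signal was 206, 277 and 210 on uninjured arrays 1 to 3 and 534, 577 and 681 on contused arrays 1 to 3. Every contused array lay above every uninjured one, and the closest pair was 1.93-fold apart. The group means were 231 ± 40 and 597 ± 75.5 (SD, n = 3), a log2 difference of 1.38 (SE 0.16), or 2.6-fold higher on the log2 scale. Among all 6705 probe sets tested, this was the rise of rank 60. The annotation does not say which transcript of Srebf1 the probe set detects.

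Insig1 was the counterpart. The brighter of its probe sets gave 462, 565 and 578 on uninjured arrays 1 to 3, and 105, 147 and 152 on contused arrays 1 to 3. The lowest uninjured array was 3.04-fold above the highest contused one. The means were 535 ± 63.4 and 135 ± 25.9 (SD, n = 3), a log2 difference of -2 (SE 0.18), which ranked 7 among the falls. The dimmer probe set, of the same gene and design sequence and so no independent replicate, gave 226, 216 and 261 on uninjured and 30.5, 42.7 and 87.6 on contused arrays. Its groups were apart as well, but only 1 contused array exceeded the floor of 61.6 under which signals were treated as equal. With the floor its log2 difference was -1.75 (SE 0.17). On the deposited scale the uninjured mean of 234 ± 23.5 was 4.37 times the contused mean of 53.6 ± 30.1. The size of the difference at this probe set depends on the floor: it was -0.90 with a floor at the 50th percentile of pooled values and -2.27 with a floor at a signal of 10.

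Vldlr lay close to the floor in both groups. The signals were 59.2, 77 and 67.1 on uninjured arrays 1 to 3 and 48.4, 62.1 and 65.6 on contused arrays 1 to 3, with 2 arrays of each group above the floor. The groups overlapped, and the means of 67.7 ± 8.91 and 58.7 ± 9.13 (SD, n = 3) differed by less than the range within either group. The log2 difference was -0.11 (SE 0.11).

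Thus 3 of the 4 member probe sets had groups that did not overlap, against 34.8% of all 6705 probe sets tested. At an adjusted p of 0.05 in limma, 7.79% of probe sets were higher and 9.59% lower. These shares are given for scale only, since the choice of the genes used the same contrast. On each of the 4 probe sets contused array 1 gave the lowest and contused array 3 the highest signal of its group. Array 1 also had the lowest trimmed mean of the contused arrays, 209 against 219 and 218. Scaling all arrays to one trimmed mean gave log2 differences of 1.42 for Srebf1, -1.95 and -1.73 for the Insig1 probe sets and -0.08 for Vldlr.

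**Figure D1:**
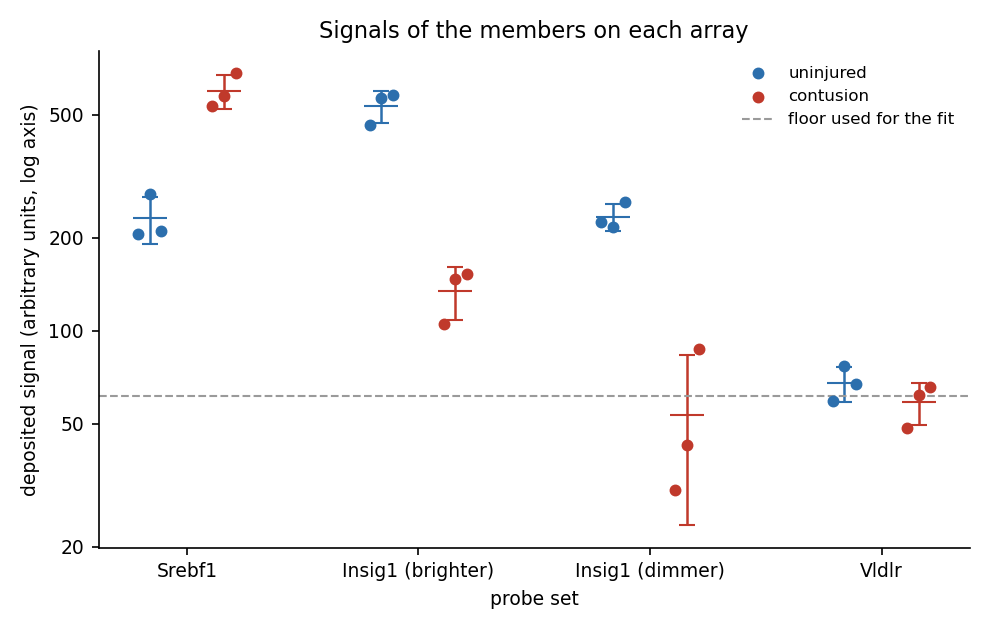
Deposited signal (arbitrary units, log axis) of the 4 member probe sets on each of the 3 uninjured and 3 contused arrays; points are arrays, horizontal bars group means, error bars SDs and the dashed line the floor of 61.6. Srebf1 lies between 534 and 681 after contusion against 206 to 277 in uninjured cord, both Insig1 probe sets are lower after contusion, and the Vldlr groups overlap around the floor.

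**Figure D2:**
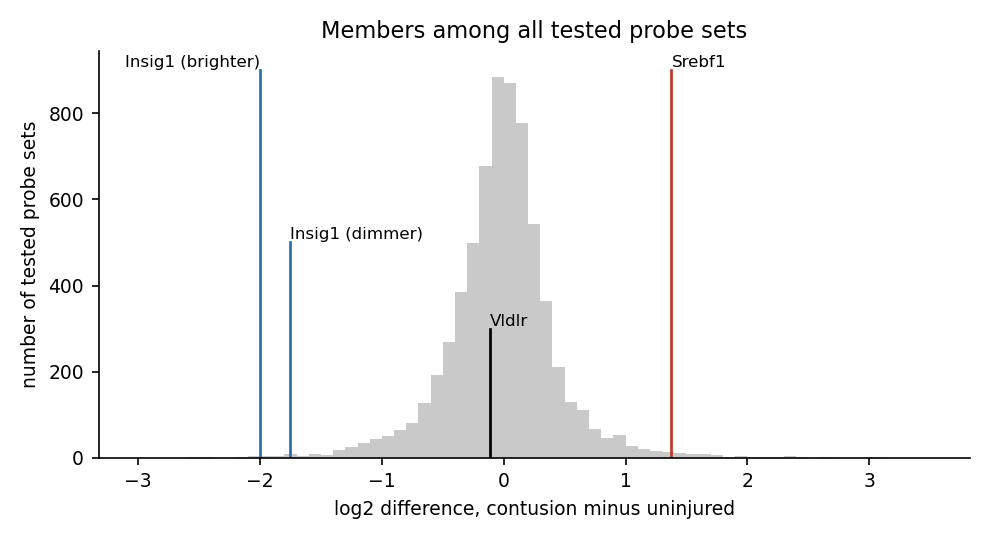
Distribution of the log2 difference, contusion minus uninjured, over 6705 tested probe sets (grey bars, counts), with the members marked by vertical lines of arbitrary height. Srebf1 (1.38) and the Insig1 probe sets (-2 and -1.75) lie in opposite tails, and Vldlr (-0.11) lies in the centre.

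The upstream sequences of Srebf1 and Insig1 are shown because these 2 genes had the largest differences of the set and went in opposite directions. RefSeq (GRCr8) gives 2 start sites for rat Srebf1, on the minus strand of chromosome 10, and 1 for Insig1, on the minus strand of chromosome 4. The 250 bases before each start are printed 5′ to 3′ along the gene. Capitals mark every match, on either strand, to CCAAT (the box bound by NF-Y, read as ATTGG on the other strand), GGGCGG (the Sp1 box, CCGCCC on the other strand) and the palindromic E-box CACGTG.
Srebf1, upstream start, chr10:45529165-45529414: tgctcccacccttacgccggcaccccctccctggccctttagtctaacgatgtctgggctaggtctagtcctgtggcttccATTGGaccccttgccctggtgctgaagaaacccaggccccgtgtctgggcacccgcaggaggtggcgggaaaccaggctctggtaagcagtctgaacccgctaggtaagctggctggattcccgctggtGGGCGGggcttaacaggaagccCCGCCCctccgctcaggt
Srebf1, downstream start, chr10:45519011-45519260: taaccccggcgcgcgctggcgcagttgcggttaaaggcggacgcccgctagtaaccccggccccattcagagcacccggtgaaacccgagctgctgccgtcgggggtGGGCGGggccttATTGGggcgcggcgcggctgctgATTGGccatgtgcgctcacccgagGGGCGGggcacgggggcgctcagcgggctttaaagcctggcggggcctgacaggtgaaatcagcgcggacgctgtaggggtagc
Insig1, chr4:8057770-8058019: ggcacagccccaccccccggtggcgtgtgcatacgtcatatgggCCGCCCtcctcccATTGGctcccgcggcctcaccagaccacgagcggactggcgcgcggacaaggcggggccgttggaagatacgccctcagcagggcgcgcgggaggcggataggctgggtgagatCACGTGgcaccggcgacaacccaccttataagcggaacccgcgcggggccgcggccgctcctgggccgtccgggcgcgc

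Each of these windows held at least 1 NF-Y box and 1 Sp1 box, the partners with which SREBPs are known to act. The window before the downstream Srebf1 start held 2 NF-Y and 2 Sp1 boxes, that before the upstream start 1 and 2, and that of Insig1 1 of each. Of 33469 windows of the same length, 34% held an NF-Y box and 30.5% an Sp1 box. GC content was 64% and 70.4% for the Srebf1 windows and 72.8% for Insig1, against a median of 51.2% over all windows. Only the Insig1 window held CACGTG, with its first base 79 bases before the start (position -79), a motif in 5.59% of all windows. The broader E-box CANNTG, which includes CACGTG, matched 3 times before the downstream Srebf1 start and 2 times in Insig1, and 65.5% of windows hold it. The sterol regulatory element core TCACNCCAC (0.974% of windows) and the LXR element DR4, a direct repeat (0.00299%) matched in none of the 3, which says only that these letters are not in these windows. The Vldlr window, on chromosome 1, held 3 Sp1 boxes and no match to the other motifs.

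To place the members, 7 lists of other sterol and lipid genes were followed, with members left out and 1 probe set for each gene. Over all lists 91 genes were tested, of which 18 rose (19.8%) and 19 fell (20.9%) at an adjusted p of 0.05 in limma. Of all 3955 genes tested, 7% rose and 9.91% fell. The lists were drawn up with earlier results of these data known, so their counts are a description of the pathway and no independent evidence. The number of risen genes was 11 without contused array 2 or without uninjured array 3.

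Cholesterol synthesis, uptake and other target genes of SREBP2, the family member most tied to sterols, fell together with Insig1. Of 13 tested genes 10 fell and 0 rose (11 lower and 0 higher at a limma p of 0.05 before adjustment), with a median log2 difference of -1.06 against -0.02 over all genes tested. Sqle (squalene epoxidase, an early oxygen-dependent step) fell from 569 ± 55.2 to 142 ± 17.6 (SD, n = 3; log2 difference -2.01, SE 0.15, limma adjusted p = 2.66e-05). Acat2, which joins acetyl-CoA units at the entry to the pathway, fell from 616 ± 11.2 to 172 ± 10.1 (log2 difference -1.84, SE 0.13). Msmo1, the sterol methyl oxidase, fell from 1367 ± 60.7 to 429 ± 43.9 (log2 difference -1.68, SE 0.13). In each of these 3 genes all contused arrays lay below all uninjured arrays. The differences of the other 7 that fell ran from -1.63 (Cyp51, lanosterol demethylase) to -0.44 (Ebp, a sterol isomerase). Mvk, Lss and Nsdhl did not pass, with log2 differences of -0.36, -0.16 and -0.36. For Mvk and Lss, another probe set of the gene did pass, 1 of 2 and 2 of 3 respectively, in the same direction.

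Target genes of SREBP1 in fatty acid synthesis were lower in the same arrays in which Srebf1 was higher: 7 of 13 fell and 0 rose (8 lower and 1 higher at a limma p of 0.05 before adjustment), with a median of -0.52. Scd, the stearoyl-CoA desaturase, had the largest fall of the list, from 545 ± 63.2 to 90.7 ± 11.7 (log2 difference -2.59, SE 0.16, limma adjusted p = 1.18e-05). Its signals were 577, 585 and 472 on uninjured and 85, 104 and 82.8 on contused arrays, with a wide gap between the groups. Slc25a1, which exports citrate from mitochondria, fell from 602 ± 55.4 to 344 ± 11.3 (log2 difference -0.80, SE 0.13). Acly, which splits that citrate into acetyl-CoA, fell from 1717 ± 91 to 1009 ± 51 (log2 difference -0.77, SE 0.11), with 2 of its 3 probe sets past the threshold. Fasn (fatty acid synthase), Elovl5 (an elongase), Me1 (malic enzyme) and Acsl3 (an acyl-CoA synthetase) fell by 0.52 to 0.77 on the log2 scale. Fasn passed narrowly (limma adjusted p = 0.0496), and for Me1 2 of 4 probe sets passed. Scd2, a second desaturase gene and the brightest of the list, gave 2605 ± 185 after contusion and 3018 ± 86.1 in uninjured cord (log2 difference -0.21, limma adjusted p = 0.189). Acaca, acetyl-CoA carboxylase, had a log2 difference of 0.42 (limma adjusted p = 0.0692), and Gpam, a glycerol phosphate acyltransferase, 0.04, although 2 of the 4 Gpam probe sets passed as higher. The count of fallen genes was 4 without contused array 1 or without contused array 2.

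**Figure D3:**
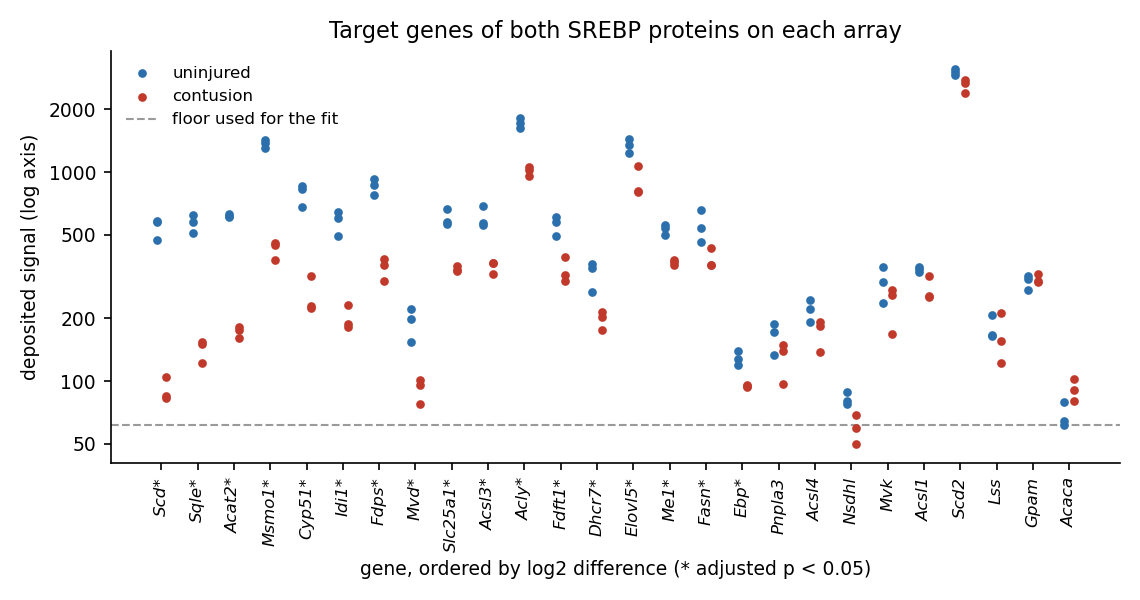
Deposited signals (log axis) of the 26 tested SREBP2 and SREBP1 target genes on each array, ordered by log2 difference, with an asterisk where the limma adjusted p is under 0.05. Blue points are uninjured and red points contused arrays, and the dashed line is the floor; the 17 genes with an asterisk are all lower after contusion, from Scd (-2.59) to Ebp (-0.44).

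The machinery that activates and degrades SREBPs was covered by 6 genes. Kpnb1 (importin beta, which carries released SREBP into the nucleus) passed alone, 1.37-fold higher (132 ± 5.22 against 96.6 ± 5.25; limma adjusted p = 0.0338), and 0 fell (0 at an unadjusted p of 0.05). The Kpnb1 call was lost without any 1 array except contused array 3 (adjusted p of 0.078 to 0.106) and with either other floor. Mbtps2, the second of the Golgi proteases, gave 83 ± 15.7 after contusion and 74 ± 10.3 in uninjured cord. Vcp, which extracts ubiquitinated proteins from the membrane, and Ube2g2, an enzyme of that route, had log2 differences of -0.05 and 0.01. The list's median was 0.01. For Hsp90ab1, the probe set that stands for the gene did not pass (log2 difference -0.24), but 1 of its 4 probe sets passed as lower. Scap, Srebf2 and Mbtps1 are not analysed here.

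LXR and its partners were measured because LXR is a known activator of Srebf1 transcription. The list holds LXR genes, partners and targets, along with the related receptor gene Nr1h4 and sterol-modifying enzymes. Of its 14 tested genes 4 rose and 1 fell, with a median of 0.24. The receptor genes themselves did not pass: Nr1h2 gave 479 ± 45.1 against 460 ± 26.9 in uninjured cord, and Nr1h3 93.4 ± 7.15 against 75.2 ± 2.69 (limma adjusted p = 0.101). Among the targets, the apolipoprotein gene Apoc1 rose from 166 ± 21.1 to 501 ± 69.3 (log2 difference 1.59, SE 0.16). Apoe, whose protein is also a ligand of the Vldlr receptor, rose from 4896 ± 354 to 8518 ± 960, or 1.74-fold. Lpl, lipoprotein lipase, was at the floor on all uninjured arrays and at least 1.63-fold higher after contusion, at 1 of its 2 probe sets. Of the enzymes on the list, Cyp7b1, an oxysterol hydroxylase, rose from 172 ± 15.8 to 299 ± 73.7. For Cyp27a1, 1 of its 2 probe sets passed as higher, but the one that stands for the gene did not pass. Ncoa1, a nuclear receptor coactivator, fell 1.59-fold. With no filter on dim probe sets Apoe did not pass (adjusted p = 0.0542), and 2 genes of the list were higher. The LXR targets Abca1 and Abcg1 are not analysed here.

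Around Vldlr, 6 of 14 tested genes of the lipoprotein receptor family, its ligands and the reelin pathway rose and 0 fell (1 lower at an unadjusted p of 0.05 in limma), with a median of 0.24. Dab2, an adaptor for receptors of this family in endocytosis, rose from 163 ± 52.4 to 514 ± 119 (log2 difference 1.68, SE 0.24). Plau, the urokinase plasminogen activator, rose from 66.9 ± 1.78 to 150 ± 20.2 and lost its call with a floor at the 50th percentile of pooled values (adjusted p = 0.132). Clu (clusterin) and Apoe, both secreted ligands, had log2 differences of 0.77 and 0.80. Reln, the reelin gene, gave 446 ± 16.7 after contusion and 370 ± 42.4 in uninjured cord (limma adjusted p = 0.208). Its downstream kinase gene Fyn gave 430 ± 40.3 and 379 ± 16.7. Lrpap1, the chaperone of the receptor family, had a log2 difference of -0.09. Lrp3, the only receptor gene tested on this list, did not pass, with a log2 difference of -0.22 (limma adjusted p = 0.335). Lpl and Plat, the tissue plasminogen activator, completed the genes that rose.

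Sterol storage and transport genes rose in 7 of 17 cases and fell in 0 (9 higher and 0 lower at a limma p of 0.05 before adjustment), with a median of 0.29. Plin2, which coats lipid droplets, rose from 178 ± 23.7 to 516 ± 36.3 (log2 difference 1.54, SE 0.15). Soat1, which esterifies cholesterol for storage, was at the floor on all uninjured arrays (52.2 ± 3.1) and at 139 ± 21.7 after contusion, at least 2.24-fold higher. Tspo, a mitochondrial outer membrane protein that binds cholesterol, rose from 141 ± 25.5 to 348 ± 43.7. Lipa, the lysosomal acid lipase that frees cholesterol from esters, rose from 315 ± 45.9 to 614 ± 120. Stard3 and Scarb1, a sterol transfer protein and a lipoprotein receptor, had log2 differences of -0.07 and -0.14.

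Insulin, AMPK and mTOR inputs to Srebf1 mostly did not pass. Of 16 tested genes 2 rose and 1 fell, with a median of -0.05. Before adjustment, 2 were higher and 3 lower at a limma p of 0.05. For Rps6 and Eif4ebp1, which did not pass, another probe set passed as higher (1 of 2 and 1 of 3 respectively). Akt2, a kinase of the insulin signal, and Prkab1, a regulatory subunit of AMPK, were 1.43-fold higher each, at 150 ± 2.29 against 105 ± 4.39 and 192 ± 12.8 against 135 ± 16.1. For Akt2, 1 of its 2 probe sets passed. Gsk3a, a kinase of the family that marks nuclear SREBP for degradation, fell 1.5-fold, from 969 ± 61.6 to 650 ± 86.2. None of the 3 calls was stable to leaving out 1 array: Akt2 reached an adjusted p of 0.0914 and Prkab1 of 0.154 without uninjured array 3, and Gsk3a of 0.0727 likewise.

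**Figure D4:**
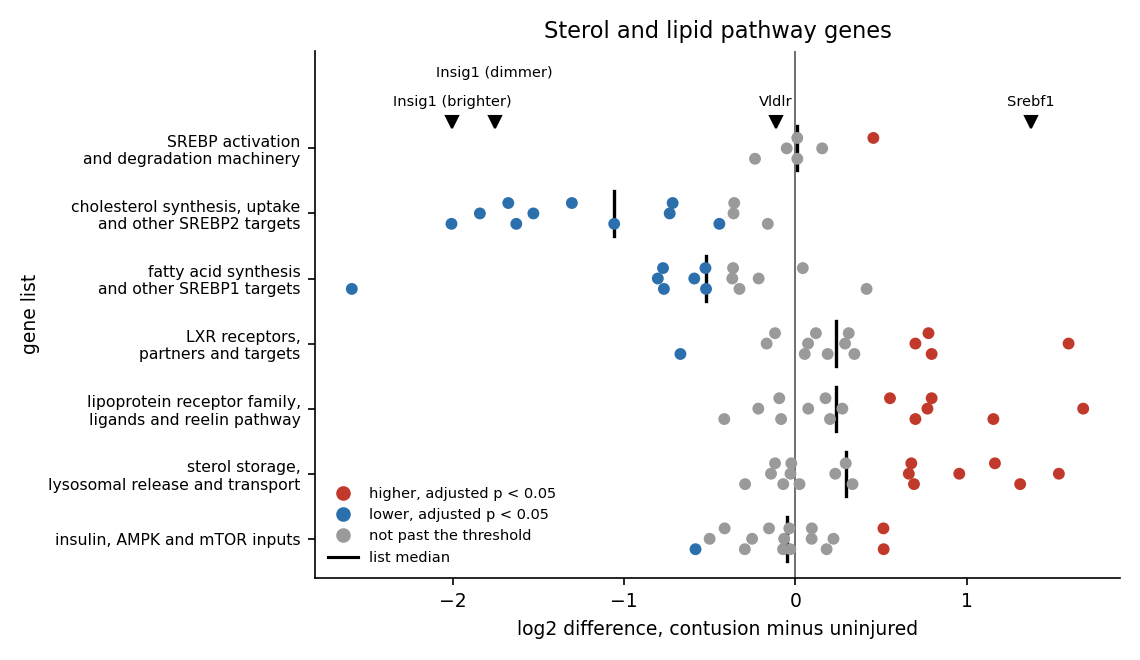
Log2 difference, contusion minus uninjured, of every tested gene of the 7 pathway lists, with 1 point for each gene, black bars at list medians and triangles at the members. Target genes of SREBP2 (median -1.06) and SREBP1 (median -0.52) lie on the side of Insig1, while the genes past the threshold on the storage list lie on the side of Srebf1.

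Cell type markers changed in the same arrays. Of 14 tested microglia and macrophage markers 13 rose, with a median of 1.29, and their summed signal was 8777 to 9377 on the contused against 2397 to 3239 on the uninjured arrays. Without contused array 2 the count was 7. Of 16 neuronal markers 15 fell (median -1.11), with summed signals of 10193 to 10980 and 20455 to 23692. Of 10 myelin and oligodendrocyte markers 5 fell and 0 rose in limma (7 and 0 at an unadjusted p of 0.05; median -0.45), with 15160 to 16297 against 18646 to 19939. The abundant myelin gene Mbp, which stands among those that did not pass, gave 5634 ± 485 after contusion and 5622 ± 530 in uninjured cord. The part of these shifts in the Srebf1 and Insig1 differences was not tested.

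Of 10 fibroblast and meningeal markers 4 rose and 0 fell in limma (before adjustment 8 and 0 at a p of 0.05). All 10 had a log2 difference above 0, and their median was 0.58. Of 12 astrocyte markers 3 rose and 0 fell in limma (before adjustment 3 and 0 as well), and the median was 0.19. The astrocyte count was 1 without contused array 2 or without uninjured array 3, and with no filter on dim probe sets 0 astrocyte and 1 fibroblast markers rose. The astrocyte sums were 19136 to 20541 after contusion and 16889 to 18357 in uninjured cord, and the fibroblast sums 8055 to 10245 and 3276 to 6696. Oligodendrocyte progenitor (6 tested), endothelial and pericyte (8) and Schwann cell (7) markers had 0 genes past the threshold in limma. At an unadjusted p of 0.05 the counts were 0 for progenitors, 2 lower for endothelium and 2 higher for Schwann cells. On the endothelial and pericyte list, other probe sets did pass for Anpep (2 of 3, higher) and Slc2a1 (1 of 2, lower). Of 8 lymphocyte markers 1 rose, Cd4, which rat macrophages carry too; it was picked out with its value known and did not pass with the floor at the median of pooled values. Marker genes at the floor on all arrays were Syt1 of the neuronal, Postn of the fibroblast and Cd3g of the lymphocyte list.

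**Figure D5:**
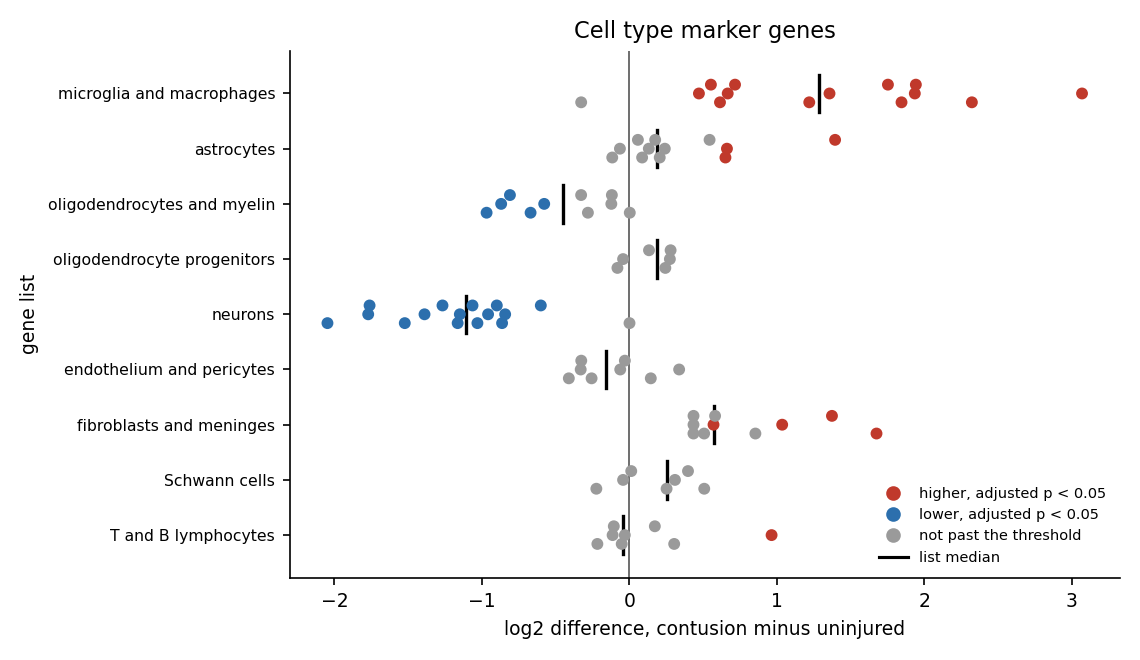
Log2 difference, contusion minus uninjured, of tested cell type markers, with 1 point for each gene, black bars at list medians and red or blue points past an adjusted p of 0.05 in limma. Microglia and macrophage markers (median 1.29) lie on the side of Srebf1, and neuronal markers (median -1.11) lie on the side of Insig1.

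The genes with signal profiles nearest to the members were found by the root mean square difference of log2 signals over the 6 arrays, after each profile was centred on its mean. Since the groups differ strongly, this likeness mostly reflects the group difference. Nearest to Srebf1 were Pdlim4, a PDZ and LIM domain gene (0.0845), P2rx4, an ATP-gated channel (0.116), and Cd37, a tetraspanin of leukocytes (0.15), against a median of 0.737 over 3952 genes. Their log2 differences were 1.3, 1.39 and 1.21. Nearest to the brighter Insig1 probe set were Acat2 (0.173) and the neuronal genes Vsnl1 (0.199) and Thy1 (0.224), against a median of 1.03. Nearest to the dimmer one were Cyp51 (0.118), Thy1 (0.154) and the sodium channel gene Scn1a (0.155), against 0.903. Both Insig1 probe sets thus had 1 gene of cholesterol synthesis as the closest, followed by genes of neurons. The nearest to Vldlr, at 0.0376 to 0.0457 against a median of 0.232, were Fra10ac1, Tent4a and Arf1. Their log2 differences of -0.10 to -0.14 were as small as that of Vldlr.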

How the data were processed

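The authors deposited 1 intensity per probe set and array, linear to judge by its skewed values, some below 0. Probe summary and array scaling are not given in the sources used here. The 2% trimmed means of the arrays differed by 8.94%, within the 10% limit set for use without rescaling. The table held 0 columns of other samples. Of 8799 probe sets, 59 controls were left out. Of 8740 remaining, 7006 are annotated with 1 gene, 308 with several and 1426 with none. Names follow GRCr8, matched by gene identifier. The lists hold 323 genes, 198 of them on the array.

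Values under the pooled 25th percentile (61.6) were set to that floor and log2 transformed, and probe sets above it on at least 3 arrays were tested: limma 3.58.1 in R 4.3.3, intensity trend, two-sided, Benjamini-Hochberg over all 6705, 3 against 3 arrays. Errors of signals are SDs and those of log2 differences limma SEs. The tested probe set of highest mean stands for its gene. For a group wholly at the floor, "at least" gives the brighter group's mean against the floor. Beyond the members, up to 3 risen and 3 fallen genes per pathway list with the smallest p are described in full, and the 3 nearest profiles of each member. Other genes are named as examples after their values were seen. The members and lists were chosen with earlier results of these data known. The procedure was tested on simulated data, with 50 probe sets changed at each size. It called 26% of log2 changes of 0.5, 78% of 1, 76% of -1 and 98% of 2. A gene that did not pass may thus still differ by a small amount. Plots used matplotlib 3.10.9.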

Additional observations from a re-analysis of the deposited data

How the results depend on the processing

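The direction of Srebf1 and both Insig1 probe sets held under each alternative run. With 1 array left out, Srebf1 ran from 1.28 to 1.51, the brighter Insig1 probe set from -2.1 to -1.83, the dimmer from -1.92 to -1.67 and Vldlr from -0.19 to -0.03 (log2 differences). The dimmer Insig1 probe set moved to -0.90 with a floor at the 50th percentile of pooled values. All its contused signals lie under that higher floor, so this difference is a lower limit in size. It moved to -2.27 with a floor at a signal of 10, since 2 contused arrays lie under the usual floor. With the floor at the 50th percentile, Vldlr was not tested.

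Among all probe sets, 522 rose and 643 fell. Without the filter on dim probe sets these were 266 and 396, and with 1 array left out 285 (without contused array 2) to 457 and 371 (without uninjured array 3) to 782. Pathway genes that rose numbered 11 to 16 and those that fell 14 to 18 with 1 array left out. Marker genes that rose numbered 21, 11 without the filter and 12 to 20 with 1 array left out, and those that fell numbered 20, and 19 to 20 with 1 array left out. The cause of these shifts was not tested. None of the pathway genes described for their smallest p changed sign. The other genes named as nearest profiles were not followed across these runs.

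Both groups number their arrays 1 to 3. Deviations of same-numbered arrays correlated at 0.042, 0.222 and -0.244, and not every array correlated best with its own number. Deviations were taken from the mean of each group of 3, so these values depend on one another. They cannot show whether same-numbered arrays were paired or shared a batch, and the labels do not say. With the replicate block, 535 probe sets rose and 665 fell, and 16 pathway genes rose and 18 fell, with Kpnb1 (adjusted p = 0.0631) and Prkab1 (0.0508) no longer past the threshold. The number of arrays limits the precision, and Vldlr is limited by a signal near the floor.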
